A study of Mus musculus with 10 samples.

Results

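The genes described here are 45 members of the BMP, TGF-beta and activin signalling pathways: 19 ligand genes, 10 receptors, 7 Smads, 5 antagonists and 4 Id target genes. They were chosen by symbol, and all 45 were found among the 22552 genes of the deposited list. Levels were measured by RNA-seq of polyadenylated RNA from cerebella of mouse embryos at E13.5, and are given as RPKM, reads scaled to gene length and library size. In the 4 Ezh2 deletion libraries, a floxed Ezh2 allele had been removed with a Pax7-Cre line, and a Rosa-YFP allele was bred in to guide the dissection. The other 4 libraries are labelled wild type, and whether those embryos carried the floxed, Cre or YFP alleles is not given in the sources used here. Both genotypes shared a mixed C57BL/6;129 background. The labels do not say whether each library came from a separate embryo or from a pool, and p-values therefore measure only how much the libraries of a genotype vary, which may be technical. Cre expressed from Pax7 acts where that gene is active, and a dissected cerebellum also holds cells outside that lineage.

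Ligands of this family are secreted dimers that bring type I and type II receptor kinases together. The type I receptor then phosphorylates Smad1 and Smad5 in the BMP branch, or Smad2 and Smad3 in the TGF-beta and activin branch, and these enter the nucleus with Smad4. Id genes are classical targets of the BMP branch, and secreted proteins such as Noggin, Chordin and Follistatin hold ligands away from their receptors. In the developing cerebellum, BMPs from the roof plate and choroid plexus are known for inducing the rhombic lip. Ezh2 is the catalytic subunit of Polycomb repressive complex 2, which silences many developmental genes through the histone mark H3K27me3. H3K27me3 ChIP-seq samples of the series were not analysed here.

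Ezh2 RNA was at 53.8, 48.7, 51.1 and 64.4 RPKM in Ezh2 deletion 1 to 4, against 73.6, 84.7, 78.2 and 78.2 RPKM in wild type 1 to 4, so transcript from the locus remained in every deletion library. Every deletion library was below every wild type library, and Ezh2 passed as lower (log2 difference -0.53, SE 0.084, limma adjusted p = 0.0074). Depth relative to wild type 1, read from steps of 1 read in low genes, lay between 1.25 and 2.11 in the deletion libraries and between 1 and 1.35 in wild type. Xist was between 54.1 and 94.5 RPKM in Ezh2 deletion 1 to 3 and 0.094 RPKM in Ezh2 deletion 4, against at most 0.0712 RPKM in wild type, while Y-linked Ddx3y was at 7.92 RPKM in Ezh2 deletion 4 and at least 8.31 RPKM in wild type. Sex is thus confounded with genotype apart from Ezh2 deletion 4. Markers of the cerebellum were present in both genotypes, with En2 at 103 ± 12.9 RPKM in Ezh2 deletion and 102 ± 13.1 RPKM in wild type (SD, n = 4 each). Others of this list differed more, in both directions. En1 averaged 59.2 RPKM in Ezh2 deletion and 42.9 RPKM in wild type, and Ptf1a 2.94 and 4.35 RPKM, both without overlap. None of the 7 cerebellum markers was called. The summed level of 7 midbrain markers was 49.4 to 105 RPKM in Ezh2 deletion and 35.7 to 41.5 RPKM in wild type. The highest sum was in Ezh2 deletion 4. Of this list only Pou4f1 was called, as higher, averaging 14.9 RPKM in Ezh2 deletion and 6.80 RPKM in wild type. The summed level of 6 neural progenitor markers was 1930 to 2121 RPKM in Ezh2 deletion and 2373 to 2482 RPKM in wild type, a difference carried by Fabp7, which averaged 1182 RPKM in Ezh2 deletion and 1661 RPKM in wild type and was called lower. The other 5 markers had higher means in Ezh2 deletion and were not called. The part of these marker differences in the results was not tested. The summed level of 6 choroid plexus markers was 164 RPKM in Ezh2 deletion 2, 17.8 RPKM in Ezh2 deletion 1, and 1.24 and 1.31 RPKM in Ezh2 deletion 3 and 4, against 0.624 to 6.16 RPKM in wild type. None of these marker genes was at 0 in all libraries.

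In Ezh2 deletion cerebella, 4 pathway genes were higher and none passed as lower: the ligand Bmp7, the BMP receptor Bmpr1b, the TGF-beta and activin effector Smad3, and the protease gene Bmp1. Of these, Bmp7 changed by far more than the others, with a mean level 3.80 times that of wild type, while Bmpr1b, Smad3 and Bmp1 were 1.36, 1.32 and 1.18 times the wild type mean. The test was limma on log2(RPKM + 0.25), applied to genes averaging 0.25 RPKM or more, with Benjamini-Hochberg adjustment over all 14279 of them and a threshold of 0.05. That scale understates the change of low genes. Of the 41 members that passed the filter, 4 (9.76%) were called higher and 0 lower. Among all genes tested 3.45% were called, 2.71% higher and 0.742% lower. At an unadjusted p under 0.05, limma gave 6 members higher and 2 lower, 19.5% of those tested, which is near the 17.7% of all genes tested. Tested members had a median log2 difference of 0.11, against -0.012 for all genes tested, and 31 of the 41 lay within 0.25 of no difference. These figures are descriptions, since a low member that is higher in 1 genotype passes the filter more easily.

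**Figure D1:**
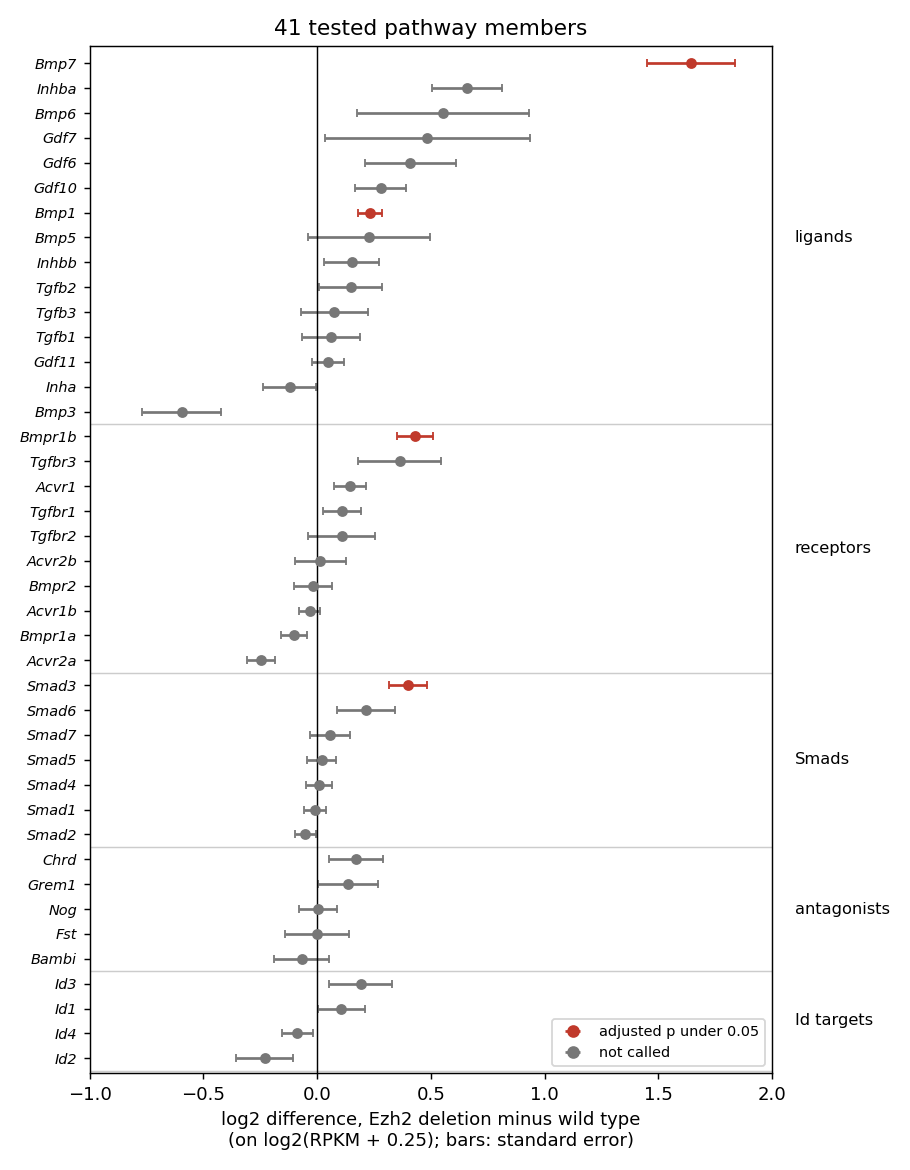
Log2 difference between Ezh2 deletion and wild type (x axis, on log2(RPKM + 0.25)) with its standard error for the 41 tested members, grouped by role. The red points are Bmp7, Bmp1, Bmpr1b and Smad3, which passed the limma test, and Bmp7 lies farthest from 0 at 1.64.

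The count of 4 depended on the libraries included. Leaving out Ezh2 deletion 3 or wild type 4 gave 1 call, and leaving out Ezh2 deletion 4 or wild type 3 gave 2. Bmp7 was called in all 8 fits that left out a library, Bmpr1b in 6, Smad3 in 2 and Bmp1 in 1. A term for sex leaves the genotype difference to Ezh2 deletion 4 alone, which also had the highest sum of midbrain markers. The p-values of that fit assume that this single library varies as the others do. In that fit Bmp7 and Smad3 were higher, Bmp3 and Acvr2a were lower, and Bmpr1b and Bmp1 were not called (limma adjusted p = 0.109 and 0.130). In all 8 libraries, 5 members had every deletion library above every wild type library (12.2% of tested members, against 6.79% of all genes tested) and 2 had every deletion library below (4.88%, against 5.61%). Among these 5, Inhba had a wild type mean under the level filter and was tested because of its level in Ezh2 deletion. These shares are therefore descriptions.

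**Figure D2:**
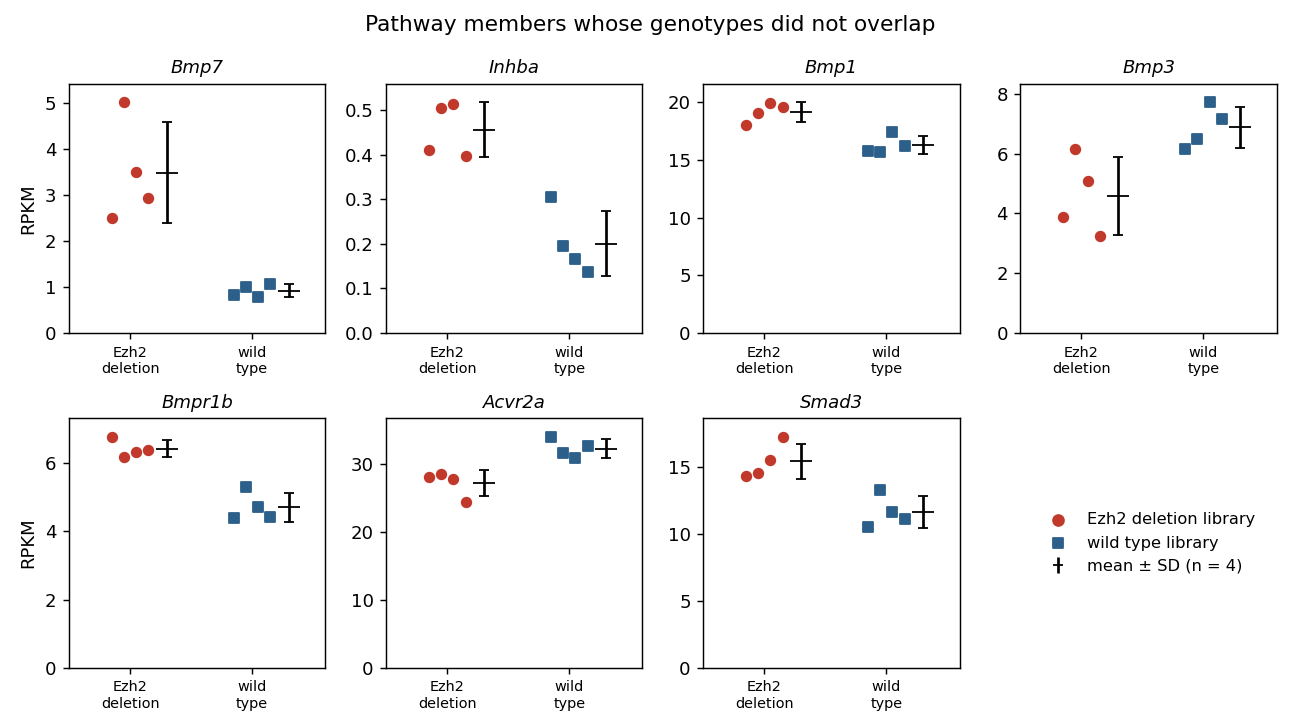
RPKM (y axis, linear from 0) of the 7 members whose 4 Ezh2 deletion and 4 wild type libraries did not overlap, with each point a library and bars for mean ± SD. Bmp7, Inhba, Bmp1, Bmpr1b and Smad3 were higher in every deletion library, and Bmp3 and Acvr2a lower in every deletion library.

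Among the ligands, Bmp7, a BMP of the roof plate, choroid plexus and meninges, showed the clearest difference. It was at 2.51, 5.03, 3.51 and 2.93 RPKM in Ezh2 deletion 1 to 4 and at 0.825, 1.00, 0.774 and 1.07 RPKM in wild type 1 to 4. Every deletion library lay above every wild type library, and Ezh2 deletion 2 was the highest. The means were 3.49 ± 1.10 RPKM in Ezh2 deletion and 0.919 ± 0.142 RPKM in wild type (SD, n = 4 each). The log2 difference for Bmp7 was 1.64, with SE 0.192 and limma adjusted p = 0.0013, and the exact two-sided permutation test gave p = 0.0286, the smallest possible with 4 against 4. Ezh2 deletion 2 was also the library with the highest level of choroid plexus markers. Without it, Bmp7 averaged 2.98 ± 0.503 RPKM in the other 3 deletion libraries, 3.24 times the wild type mean, and had a log2 difference of 1.46 (limma adjusted p = 0.0010). Choroid plexus markers summed to 1.24 and 1.31 RPKM in Ezh2 deletion 3 and 4, where Bmp7 was at 3.51 and 2.93 RPKM. Folr1 of that list averaged 0.956 RPKM in Ezh2 deletion and 0.156 RPKM in wild type, without overlap. The meningeal markers Foxc2 and Aldh1a2 averaged 0.419 and 0.394 RPKM in Ezh2 deletion and 0.0714 and 0.0594 RPKM in wild type, without overlap. Other markers of both lists overlapped. Roof plate markers summed to 33.6 to 55.3 RPKM in Ezh2 deletion and 34.4 to 40.1 RPKM in wild type. The part of these tissues in the Bmp7 values was not tested.

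Inhba encodes the activin beta A subunit, which pairs with itself to form activin A. It was at 0.409, 0.505, 0.513 and 0.397 RPKM in Ezh2 deletion 1 to 4 and at 0.305, 0.194, 0.167 and 0.136 RPKM in wild type 1 to 4. The genotypes did not overlap, but all values were low and the gene missed the threshold (log2 difference 0.66, SE 0.155, limma adjusted p = 0.0506). Its wild type mean of 0.200 RPKM was under the level filter, so it was tested because of its level in Ezh2 deletion. Of 18 alternative settings, 6 called it higher.

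Bmp1 sits among the ligands by name, but encodes a metalloprotease that cleaves procollagens and Chordin. It was at 18.01, 19.04, 19.95 and 19.6 RPKM in Ezh2 deletion 1 to 4 and at 15.7, 15.7, 17.4 and 16.2 RPKM in wild type 1 to 4. The libraries of the genotypes did not overlap, and the difference was small (log2 difference 0.23, SE 0.054, limma adjusted p = 0.0491). This call lies at the threshold and held in 6 of 19 alternative settings, with adjusted p between 0.0382 and 0.137.

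Bmp3 encodes an atypical BMP that opposes signalling by other BMPs. It was at 3.86, 6.16, 5.08 and 3.25 RPKM in Ezh2 deletion 1 to 4 and at 6.17, 6.50, 7.72 and 7.14 RPKM in wild type 1 to 4. Every deletion library was below every wild type library and Ezh2 deletion 2 came close to wild type 1. The log2 difference was -0.59 (SE 0.174) and did not pass (limma adjusted p = 0.110). Without Ezh2 deletion 2 it was -0.74 and passed (limma adjusted p = 0.0283), and in Ezh2 deletion 4 alone, beside a term for sex, it was -1.02. Bmp3 passed in 2 of 19 alternative settings, and in 1 of the 8 fits with 1 library left out.

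Gdf10, a relative of Bmp3 known in the cerebellum as a gene of Bergmann glia and their precursors, was the most abundant ligand. It was at 26.2, 30.8, 23.6 and 20.3 RPKM in Ezh2 deletion 1 to 4 and at 21.4, 19.7, 21.7 and 19.3 RPKM in wild type 1 to 4. The groups overlapped, since Ezh2 deletion 4 lay within the wild type range, and the gene was not called (log2 difference 0.28, SE 0.112, limma adjusted p = 0.229). Gdf11, which limits neuron number in several tissues, averaged 15.0 ± 1.27 RPKM in Ezh2 deletion and 14.4 ± 0.629 RPKM in wild type. The 3 TGF-beta genes were at 2.04, 6.93 and 1.43 RPKM for Tgfb1, Tgfb2 and Tgfb3 in Ezh2 deletion, against 1.92, 6.17 and 1.34 RPKM in wild type. None of the 3 passed (limma adjusted p between 0.636 and 0.850). Inhbb, the activin beta B subunit, averaged 5.19 RPKM in Ezh2 deletion and 4.64 RPKM in wild type, and Inha, whose product turns activin subunits into inhibin, 6.33 and 6.86 RPKM. Neither was called.

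**Figure D3:**
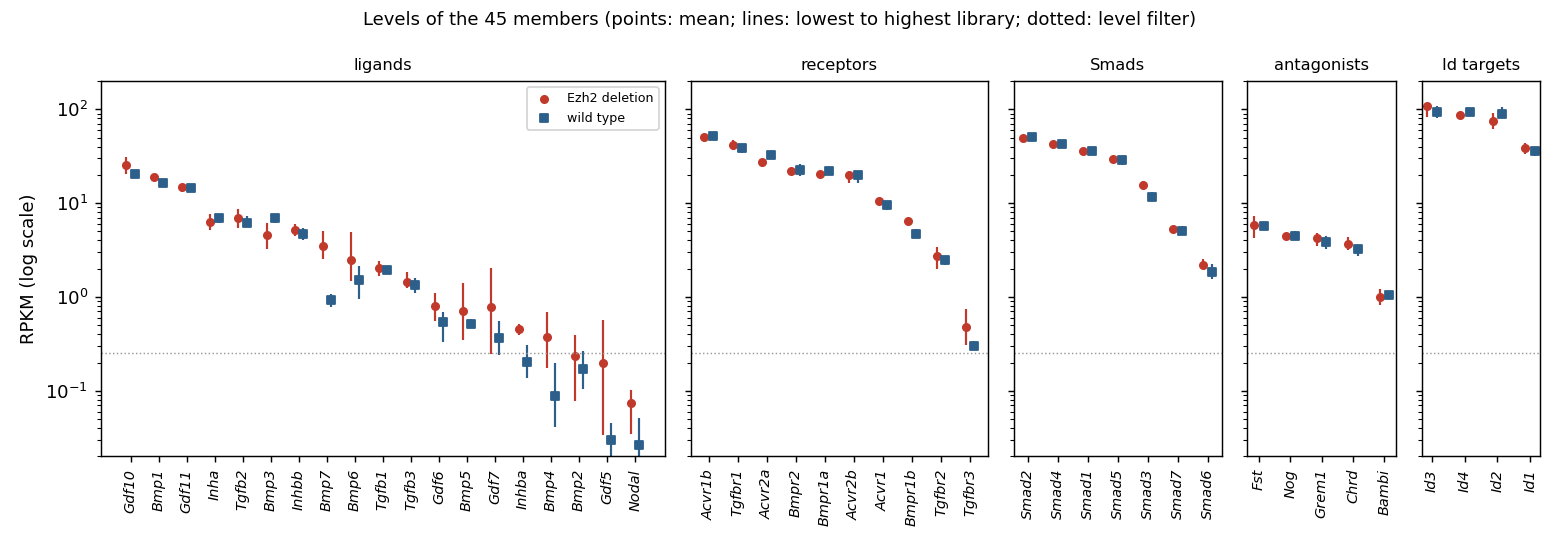
RPKM on a log axis for the 45 members ordered by mean level within each role, with points for the mean of 4 libraries and lines from the lowest to the highest library, cut at 0.02 RPKM. Receptors, Smads and Id genes lie mostly above 10 RPKM and close together between genotypes, while 16 of the 19 ligands average under 10 RPKM.

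The ligands Bmp6, Gdf7 and Bmp5 were low and varied more between deletion libraries than between wild type libraries. Bmp6 was at 1.79, 4.92, 1.48 and 1.76 RPKM in Ezh2 deletion 1 to 4 and at 1.87, 2.16, 0.952 and 1.03 RPKM in wild type 1 to 4. Gdf7, a ligand of the roof plate, was at 0.562, 2.02, 0.244 and 0.300 RPKM in Ezh2 deletion 1 to 4 and at 0.406, 0.242, 0.555 and 0.251 RPKM in wild type 1 to 4. Bmp5 was at 0.556, 1.41, 0.348 and 0.555 RPKM in Ezh2 deletion 1 to 4 and at 0.504, 0.470, 0.507 and 0.581 RPKM in wild type 1 to 4. For these 3 genes Ezh2 deletion 2 stood above the rest, while the other deletion libraries lay in or near the wild type range. None was called (limma adjusted p = 0.488 for Bmp6, 0.626 for Gdf7 and 0.708 for Bmp5).

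Over all 45 members, 9 were more than 1.5 times as high in Ezh2 deletion 2 as the mean of the other 3 deletion libraries, and 8 of these 9 were ligands. All 9 averaged under 10 RPKM, as did 16 of the 19 ligands, and no share over all genes is given here. The ratio of Ezh2 deletion 2 to that mean was 7.43 for Gdf5, 5.47 for Gdf7, 2.93 for Bmp6, 2.89 for Bmp5, 2.48 for Bmp4 and 1.94 for the co-receptor Tgfbr3. It was 1.69 for Bmp7, 1.57 for Nodal and 1.52 for Bmp3. Choroid plexus markers in the same library summed to 164 RPKM, of which Ttr, the most abundant, made up 152 RPKM, against 16.2, 0.382 and 0.188 RPKM of Ttr in Ezh2 deletion 1, 3 and 4. Meningeal markers, 8 in number, summed to 18.7 RPKM in Ezh2 deletion 2 and to between 3.15 and 4.22 RPKM in the other deletion libraries, against 2.31 to 6.78 RPKM in wild type. The part of these tissues in the ligand values was not tested. In bulk tissue, more cells of a type and more RNA per cell cannot be told apart.

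**Figure D4:**
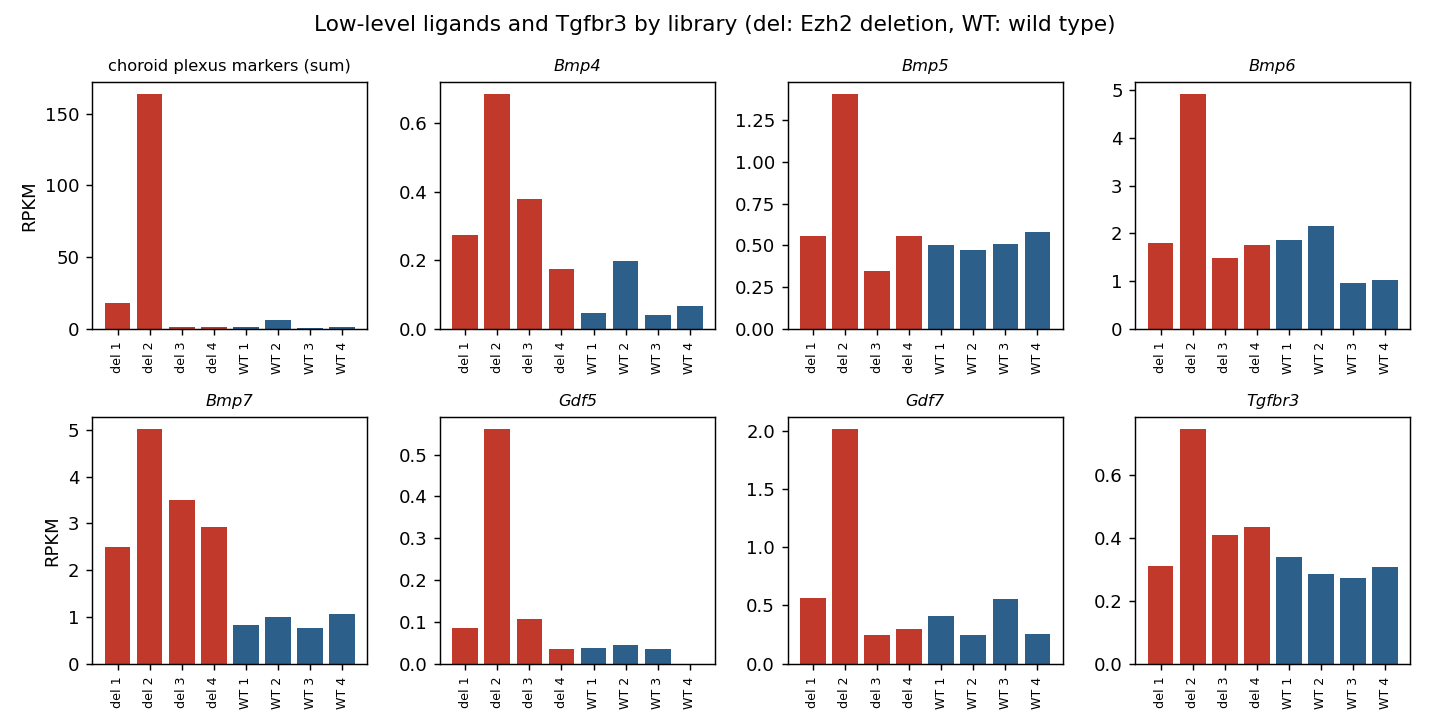
RPKM per library (bars, y axis from 0) for the sum of 6 choroid plexus markers, for 6 BMP and GDF ligands and for Tgfbr3. Ezh2 deletion 2 is the highest library in each panel, and Bmp7 is also higher in Ezh2 deletion 1, 3 and 4 than in each wild type library.

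The 4 ligands below the level filter were Bmp2, Bmp4, Gdf5 and Nodal. Bmp4, a dorsalizing signal of the roof plate, was at 0.274, 0.684, 0.380 and 0.174 RPKM in Ezh2 deletion 1 to 4 and at 0.0452, 0.198, 0.0412 and 0.0671 RPKM in wild type 1 to 4. Its mean over all libraries, 0.233 RPKM, lay just under the filter, and the groups overlapped through wild type 2. With no filter, the log2 difference of Bmp4 was 0.86 (SE 0.239, limma adjusted p = 0.113), which did not pass. Bmp2 averaged 0.235 RPKM in Ezh2 deletion and 0.170 RPKM in wild type, Gdf5 averaged 0.197 and 0.0297 RPKM, and Nodal 0.0736 and 0.0265 RPKM. Gdf6, which was tested, at 0.804 RPKM in Ezh2 deletion and 0.541 RPKM in wild type, was not called (limma adjusted p = 0.325).

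Of the 10 receptors, Bmpr1b was higher and 0 passed as lower, and 1 other, Acvr2a, had an unadjusted limma p under 0.05. This makes 10% called and 20% at that unadjusted p, against 3.45% and 17.7% of all genes tested. Bmpr1b is a type I BMP receptor, also called ALK6, and was less abundant than its relative Bmpr1a here. It was at 6.77, 6.18, 6.32 and 6.38 RPKM in Ezh2 deletion 1 to 4 and at 4.38, 5.31, 4.70 and 4.43 RPKM in wild type 1 to 4. The deletion libraries lay close together and above each wild type library (log2 difference 0.43, SE 0.078, limma adjusted p = 0.0159). The call was lost without Ezh2 deletion 3 and without wild type 4 (limma adjusted p = 0.0510 and 0.0624), while the log2 difference stayed between 0.40 and 0.49 with 1 library left out. Bmpr1a averaged 20.2 ± 0.865 RPKM in Ezh2 deletion and 21.7 ± 1.25 RPKM in wild type, and was not called (limma adjusted p = 0.377).

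Acvr2a, a type II receptor for activins that also binds BMPs, was at 28.1, 28.6, 27.8 and 24.4 RPKM in Ezh2 deletion 1 to 4. In wild type 1 to 4 it was at 34.0, 31.6, 30.9 and 32.6 RPKM, above every deletion library. The log2 difference was -0.25 (SE 0.060) and missed the threshold (limma adjusted p = 0.0575). Acvr2a passed in 2 of 19 alternative settings, among them library weights (limma adjusted p = 0.0407). It passed in 0 of the 8 fits with 1 library left out (limma adjusted p between 0.0649 and 0.155). In Ezh2 deletion 4 alone, beside a term for sex, the log2 difference of Acvr2a was -0.40. Its paralog Acvr2b averaged 19.9 RPKM in Ezh2 deletion and 19.7 RPKM in wild type.

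Acvr1b, the type I activin receptor and the most abundant receptor here, was at 51.9, 50.1, 52.9 and 49.4 RPKM in Ezh2 deletion 1 to 4 and at 51.9, 49.5, 53.6 and 53.9 RPKM in wild type 1 to 4. The groups overlapped, and the 95% interval of the log2 difference was -0.13 to 0.071. Tgfbr1, the type I TGF-beta receptor, averaged 42.0 RPKM in Ezh2 deletion and 38.9 RPKM in wild type, while the type II receptor Tgfbr2 averaged 2.71 and 2.46 RPKM. The BMP type II receptor Bmpr2 averaged 22.2 RPKM in Ezh2 deletion and 22.6 RPKM in wild type, and Acvr1, a type I receptor for BMPs, 10.5 and 9.54 RPKM. Tgfbr3, a co-receptor that presents TGF-beta, averaged 0.474 and 0.301 RPKM. None of these 5 was called (limma adjusted p between 0.329 and 0.943).

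Of the 7 Smads, Smad3 was higher and 0 were lower, either with adjustment or at an unadjusted limma p under 0.05. That 1 gene is 14.3% of the Smads, against 3.45% of all genes tested with adjustment and 17.7% without. Smad3 was at 14.3, 14.5, 15.5 and 17.2 RPKM in Ezh2 deletion 1 to 4 and at 10.5, 13.3, 11.6 and 11.1 RPKM in wild type 1 to 4. Every deletion library was above every wild type library, and wild type 2 came nearest (log2 difference 0.40, SE 0.084, limma adjusted p = 0.0334). With 1 library left out the log2 difference was between 0.34 and 0.46, and it was called only without Ezh2 deletion 2 or without wild type 2. In Ezh2 deletion 4 alone, beside a term for sex, the log2 difference was 0.56.

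The other Smads differed little. Smad2, which works beside Smad3 and was the most abundant Smad, was at 49.5, 46.7, 48.7 and 50.7 RPKM in Ezh2 deletion 1 to 4 and at 48.0, 49.6, 52.5 and 52.7 RPKM in wild type 1 to 4. These ranges overlapped, with a 95% interval of the log2 difference from -0.16 to 0.056. Smad1 and Smad5 of the BMP branch averaged 35.5 and 29.3 RPKM in Ezh2 deletion and 35.7 and 28.9 RPKM in wild type. The shared partner Smad4 averaged 43.2 RPKM in Ezh2 deletion and 42.9 RPKM in wild type, with a 95% interval of the log2 difference from -0.12 to 0.14. The inhibitory Smad6 and Smad7 averaged 2.17 and 5.27 RPKM in Ezh2 deletion and 1.84 and 5.07 RPKM in wild type, and neither was called.

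Promoter sequence was available for 30 of the 45 members, as 35 RefSeq windows of 300 bases on GRCm38.p6, each from 250 bases before to 50 after a transcript start. The files' own build is mm9, and these windows are shown only as sequence. They contrast members with many and few CpG dinucleotides, which are in capitals, among genes whose genotypes did not overlap.
Smad3 (chr9:63757945-63758244, minus strand): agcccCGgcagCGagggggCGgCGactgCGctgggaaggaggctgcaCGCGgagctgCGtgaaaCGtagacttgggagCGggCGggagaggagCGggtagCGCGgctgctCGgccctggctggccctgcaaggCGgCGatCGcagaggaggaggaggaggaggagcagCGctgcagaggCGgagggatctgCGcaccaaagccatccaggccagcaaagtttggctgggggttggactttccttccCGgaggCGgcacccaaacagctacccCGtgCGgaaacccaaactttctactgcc
Acvr2a (chr2:48813859-48814158, plus strand): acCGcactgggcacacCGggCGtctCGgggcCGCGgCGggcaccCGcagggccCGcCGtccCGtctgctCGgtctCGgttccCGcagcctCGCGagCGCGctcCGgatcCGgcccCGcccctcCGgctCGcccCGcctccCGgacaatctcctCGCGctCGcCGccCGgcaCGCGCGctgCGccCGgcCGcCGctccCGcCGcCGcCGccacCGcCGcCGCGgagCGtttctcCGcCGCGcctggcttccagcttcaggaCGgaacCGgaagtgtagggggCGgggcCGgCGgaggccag
Bmpr1b (chr3:141982215-141982514, minus strand): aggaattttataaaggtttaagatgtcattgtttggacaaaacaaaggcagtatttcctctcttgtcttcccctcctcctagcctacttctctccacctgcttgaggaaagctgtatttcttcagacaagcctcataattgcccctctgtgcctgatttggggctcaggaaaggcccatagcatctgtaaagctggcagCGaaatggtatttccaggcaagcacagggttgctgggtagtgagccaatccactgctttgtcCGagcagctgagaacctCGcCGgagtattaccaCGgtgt
Inhba (chr13:16011601-16011900, plus strand): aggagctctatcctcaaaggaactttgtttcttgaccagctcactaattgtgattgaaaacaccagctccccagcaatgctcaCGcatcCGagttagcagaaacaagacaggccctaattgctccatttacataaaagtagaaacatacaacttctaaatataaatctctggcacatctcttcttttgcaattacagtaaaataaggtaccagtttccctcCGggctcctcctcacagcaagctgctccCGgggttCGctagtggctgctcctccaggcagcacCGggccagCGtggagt

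The Smad3 window held 25 CpGs and that of Acvr2a 54, while the Inhba window held 7 and the Bmpr1b window shown 5. The 2 other Bmpr1b windows held 6 each and overlap one another. The median over the member windows was 27 CpGs, against 7 over all 32851 windows of the table. A ratio of observed to expected CpG above 0.6 was found in 71.4% of member windows and 35.8% of all windows. Median GC content was 66.3% in member windows and 52.7% in all windows, and its part in the site counts was not tested. The GC-rich Smad site GGCGCC, searched on both strands, was in 31.4% of member windows and 11.9% of all windows. The 10 members with it were Acvr1b, Bmpr1a, Bmpr2, Chrd, Gdf10, Grem1, Id2, Id4, Smad5 and Tgfbr1, and overlapping windows of Smad5 were counted separately. This site was in none of the windows of Smad3, Bmpr1b, Inhba and Acvr2a. The longer TGGCGCC, which contains that site, was in 0 member windows and 4.03% of all windows. The palindromic Smad box GTCTAGAC was in 1 member window, that of Smad6, and in 0.213% of all windows. The Smad-binding element core CAGACA was in 14.3% of member windows and 21.0% of all windows. A match describes letters in a window and shows no binding.

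The 5 antagonists and 4 Id genes gave 0 calls, and 0 had an unadjusted limma p under 0.05. Among all genes tested these shares were 3.45% and 17.7%, so counts of 0 among so few genes say little. Fst, which binds activins and was the most abundant antagonist, was at 5.35, 4.23, 6.43 and 7.24 RPKM in Ezh2 deletion 1 to 4 and at 5.64, 5.47, 6.00 and 5.70 RPKM in wild type 1 to 4. The deletion libraries fell on both sides of the wild type range, and the 95% interval of the log2 difference was -0.31 to 0.32. The BMP antagonists Nog, Chrd and Grem1 averaged 4.51, 3.66 and 4.30 RPKM in Ezh2 deletion and 4.51, 3.22 and 3.90 RPKM in wild type. Bambi, a pseudoreceptor that dampens signalling, averaged 1.00 RPKM in Ezh2 deletion and 1.05 RPKM in wild type.

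Id3, an inhibitor of bHLH factors and the most abundant Id gene, was at 116, 114, 82.4 and 118 RPKM in Ezh2 deletion 1 to 4 and at 80.5, 109, 103 and 83.5 RPKM in wild type 1 to 4. Ezh2 deletion 1, 2 and 4 were above the wild type range and Ezh2 deletion 3 lay within it (log2 difference 0.19, SE 0.138, limma adjusted p = 0.515). Id1 averaged 38.9 ± 5.72 RPKM in Ezh2 deletion and 35.9 ± 2.92 RPKM in wild type, and Id4 averaged 87.5 ± 6.90 and 92.9 ± 6.06 RPKM (SD, n = 4 each). Id2 averaged 75.3 ± 12.4 RPKM in Ezh2 deletion and 88.1 ± 11.9 RPKM in wild type, with a 95% interval of the log2 difference from -0.51 to 0.051. The signs of the 4 log2 differences were mixed, with Id1 and Id3 above 0 and Id2 and Id4 below.

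Beyond the 45 members, 63 other genes of these pathways were followed, of which 42 passed the level filter. Called higher were 4 (9.52%) and lower 0, against 2.71% higher and 0.742% lower among all genes tested. All 4 were among the 18 tested extracellular regulators and encode secreted proteins. At an unadjusted p under 0.05, limma gave 8 higher and 2 lower, 23.8% of those tested against 17.7% of all genes tested. None of the 2 tested ligands, 5 receptors and co-receptors, 11 Smad regulators and 6 target genes was called, and at an unadjusted p under 0.05 these held 1 co-receptor and 1 target gene. The co-receptor, Hfe2, had a wild type mean under the level filter and was tested because of its level in Ezh2 deletion.

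Ltbp4, which tethers latent TGF-beta in the matrix, was at 3.48, 3.34, 4.36 and 4.25 RPKM in Ezh2 deletion 1 to 4 and at 2.27, 2.19, 2.36 and 2.43 RPKM in wild type 1 to 4. Every deletion library was above every wild type library. The means were 3.86 ± 0.520 RPKM in Ezh2 deletion and 2.31 ± 0.106 RPKM in wild type (SD, n = 4 each), with a log2 difference of 0.68 and limma adjusted p = 0.0070. It was called in all 8 fits with 1 library left out.

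Kcp, a chordin-like protein reported to enhance BMP signalling, averaged 3.13 ± 0.405 RPKM in Ezh2 deletion and 2.05 ± 0.102 RPKM in wild type (log2 difference 0.54, limma adjusted p = 0.0226; SD, n = 4 each). Tll1, a protease related to Bmp1 that also cleaves Chordin, averaged 9.01 ± 1.53 and 6.11 ± 0.437 RPKM (log2 difference 0.53, limma adjusted p = 0.0430). With sex as a term, which leaves only Ezh2 deletion 4 to set against wild type, Kcp and Tll1 had log2 differences of 0.35 and 0.17 and were not called (limma adjusted p = 0.242 and 0.473). Kcp was called in 3 and Tll1 in 1 of the 8 fits with 1 library left out: without Ezh2 deletion 2, Ezh2 deletion 4 or wild type 1 for Kcp, and without Ezh2 deletion 4 for Tll1.

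**Figure D5:**
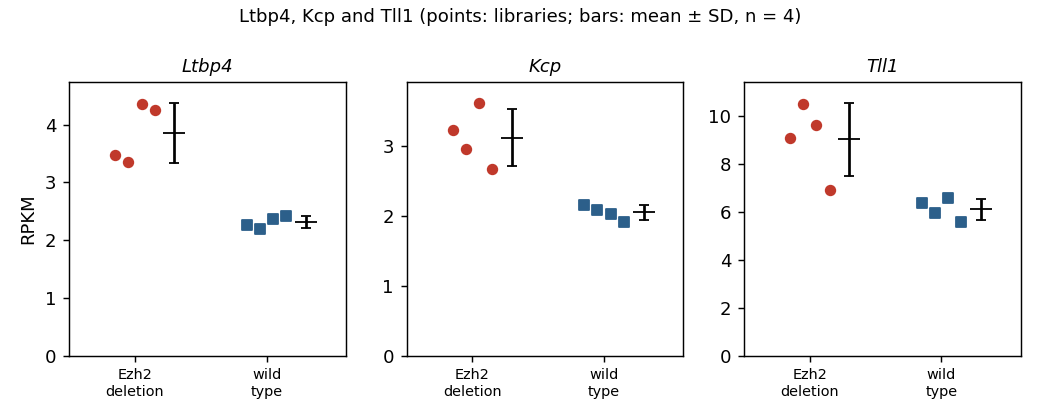
RPKM (y axis, linear from 0) of Ltbp4, Kcp and Tll1 in each Ezh2 deletion and wild type library, with mean ± SD. All 3 genes are higher in each deletion library than in each wild type library.

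Msx1, a homeobox target of BMP signalling in dorsal neural tissue, was the target gene with an unadjusted p under 0.05. It was at 7.66, 12.7, 4.81 and 9.17 RPKM in Ezh2 deletion 1 to 4 and at 3.36, 4.57, 3.57 and 4.88 RPKM in wild type 1 to 4. Ezh2 deletion 3 lay within the wild type range, and the gene was not called (log2 difference 0.96, SE 0.267, limma adjusted p = 0.104). Msx1 was called higher without Ezh2 deletion 3, the library that overlapped wild type, and with a replicate block, but in no other alternative setting. Msx2 averaged 5.81 RPKM in Ezh2 deletion and 4.24 RPKM in wild type (limma adjusted p = 0.397). Sostdc1, a secreted antagonist of BMP and Wnt signalling, was at 1.62, 4.08, 1.46 and 1.31 RPKM in Ezh2 deletion 1 to 4 and at 4.44, 3.51, 3.72 and 3.74 RPKM in wild type 1 to 4. Ezh2 deletion 2 again differed from the other deletion libraries, which were all below wild type. Sostdc1 was not called with all libraries (log2 difference -0.92, limma adjusted p = 0.143). It was called lower in 1 of 21 alternative settings, the fit without Ezh2 deletion 2, which leaves out the only deletion library within the wild type range. Ltbp3, a relative of Ltbp4, averaged 8.41 RPKM in Ezh2 deletion and 6.86 RPKM in wild type without overlap, and was not called (limma adjusted p = 0.126).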

How the data were processed

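The authors deposited 1 table of RPKM values with a column per RNA-seq library, and its columns were matched to samples by title. Per the submitters' processing notes, Bowtie, TopHat, SICER and Cuffdiff and the build mm9 were used, with no versions given. The annotation, use of strand and treatment of multi-mapped reads are not stated in the labels or the file, so overlapping and antisense genes are uncertain. Total depth is unknown.

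RPKM values are not counts, so log2(RPKM + 0.25) was tested with limma 3.58.1 under R 4.3.3. Its eBayes step used a mean-variance trend and robust estimation, with statmod 1.5.0. Genes with a mean of at least 0.25 RPKM were tested two-sided, with Benjamini-Hochberg adjustment over 14279 genes and a threshold of 0.05. Values in every library are given for Ezh2, for members that were called or whose genotypes did not overlap, and for the most abundant member of each role. They are also given for called genes among the other pathway genes, up to 8, some of which are summarised as means. Msx1, Msx2, Sostdc1, Ltbp3, Lefty1, Cer1, Hfe2, Bmp4, Bmp5, Bmp6 and Gdf7 were added after their values were seen. The same holds for the markers En1, Ptf1a, Pou4f1, Folr1, Foxc2 and Aldh1a2. Of the called genes among the other pathway genes, 1 is counted but not reported here. The members, lists and alternatives were chosen with earlier results of these data known.

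In simulated data for Ezh2 deletion against wild type, with 14195 genes tested, the share of changed genes recovered was 70.1% at 1.5-fold, 94.0% at 2-fold and 97.0% at 4-fold. False calls made up 1.69% there. Whether these shares hold for the deposited libraries, where sex is largely confounded with genotype and tissue markers differ, was not tested. The shares were not split by level, and recovery of low members such as Inhba, Gdf7 and Bmp5 was not tested. Alternatives covered the pseudocount, filter, scaling, weights, variance model, replicate block, sex, threshold and each library left out.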

Additional observations from a re-analysis of the deposited data

Results flagged for a closer look

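In a group of 4 libraries, a value is named here when its gap to the nearest other library passes Dixon's 95% critical value. Chance gives this in about 1 in 20 groups, and 8 of 98 groups met it. Among the Ezh2 deletion libraries, Bmp6 was at 4.92 RPKM in Ezh2 deletion 2, with the next at 1.79 RPKM, and Gdf5 was at 0.562 RPKM in Ezh2 deletion 2, with the next at 0.107 RPKM. That library also had the highest sum of choroid plexus markers, 164 RPKM, and the part of this in both values was not tested. Smad5 was at 30.1 RPKM in Ezh2 deletion 4, with the next at 29.1 RPKM. Id3 was at 82.4 RPKM in Ezh2 deletion 3, with the next at 114 RPKM. Among the wild type libraries, Bmp4 was at 0.198 RPKM in wild type 2, which also had the highest wild type sum of choroid plexus markers, 6.16 RPKM. Id2 was at 106 RPKM in wild type 2, with the next at 84.3 RPKM. Tgfbr1 was at 33.9 RPKM and Smad4 at 39.4 RPKM in wild type 1, with the next at 40.4 and 43.8 RPKM.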

How the results depend on the processing

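Bmp7 and Ltbp4 were called higher in all 19 alternative settings run for single genes, with log2 differences of 1.2 to 1.78 and 0.55 to 0.82. Bmpr1b held in 15 of 19 and Smad3 in 11 of 19. The 4 higher members became 1 with a replicate block, 2 with a term for sex and 1 at an adjusted p under 0.01, and 1 to 3 with 1 library left out. The 0 lower members became 1 with library weights (Acvr2a), 2 with a term for sex, 1 at an adjusted p under 0.1, and 0 to 1 with 1 library left out. Of the other pathway genes, 5 were higher with a replicate block, which added Msx1, 2 were higher with a term for sex and 2 at an adjusted p under 0.01, and 2 to 4 were higher and 0 to 1 lower with 1 library left out. Over all genes, 387 were higher and 106 lower. Higher genes numbered 173 at an adjusted p under 0.01, 614 under 0.1, and 223 to 352 with 1 library left out. Lower genes numbered 28 and 248 at these thresholds, 53 with a replicate block, 181 with library weights, 232 with a term for sex, and 40 to 100 with 1 library left out. With erythroid and sex-linked genes removed and the libraries rescaled, 478 were higher and 55 lower. In that setting the median log2 difference over all genes tested was 0.038, against -0.012 without this change. Ezh2 itself missed the threshold once sex was a term, at a log2 difference of -0.29 (limma adjusted p = 0.110). Gdf10, at a log2 difference of 0.28 and not called with all libraries, was at -0.016 with a term for sex. The sign also turned for members near 0 that were not called: Smad2 was at 0.00045 with a term for sex, Acvr1b at 0.020 and Smad2 at 0.00034 with erythroid and sex-linked genes removed, and Fst at -0.043 with quantile normalization and between -0.11 and 0.14 with 1 library left out. The cause was not tested. Replicate numbers showed no clear pairing of the libraries. Deviations from the group means correlated by 0.0034 to 0.087 between libraries of the same number, and 1 of 4 deletion libraries correlated best with its own number. Correlations this few and weak cannot decide whether the libraries were paired. Unknown depth limits what can be said of members under 1 RPKM.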

Other observations

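Of the extracellular inhibitors of the Nodal branch, Dand5 averaged 8.39 RPKM in Ezh2 deletion and 8.42 RPKM in wild type with overlapping libraries, while Lefty1 and Cer1 were near the lower end of measurement. Lefty1 was at 0.0922, 0.123, 0.0925 and 0.0854 RPKM in Ezh2 deletion 1 to 4 and at 0, 0.0459, 0 and 0.0214 RPKM in wild type 1 to 4, so every deletion library was above every wild type library. It was below the level filter, and in a fit with no filter it was among the genes called higher. Cer1 was listed at 0.0672, 0.0249, 0.0421 and 0 RPKM in Ezh2 deletion 1 to 4 and at 0 in the wild type libraries. Relative depth was lowest in wild type 1 and 3, at 1 and 1.10, and was 1.25 to 2.11 in the deletion libraries. The part of depth in the Lefty1 and Cer1 values was not tested. Nodal itself averaged 0.0736 ± 0.0311 RPKM in Ezh2 deletion and 0.0265 ± 0.0229 RPKM in wild type (SD, n = 4 each), with overlapping libraries. Hfe2, a co-receptor for BMPs, averaged 0.477 ± 0.168 RPKM in Ezh2 deletion and 0.198 ± 0.0624 RPKM in wild type, without overlap between the genotypes, and was not called (limma adjusted p = 0.0941). Its wild type mean was under the level filter, so it was tested because of its level in Ezh2 deletion.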
